A study of Mus musculus with 10 samples.

Results

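The skeletal muscle genes followed here were 39 genes of the sarcomere, the calcium release system and muscle energy supply, taken from a list and found by symbol among the 41249 gene identifiers counted in interscapular brown adipose tissue (iBAT). All 39 were matched to 1 identifier each, and 14 of them belong to fast fibres, 9 to slow fibres and 16 to both. The libraries were made from the whole depot of 10 mice, 1 library per mouse, with 5 whole-body constitutive Axl KO mice and 5 wild-type (WT) controls. Per the study's methods the controls were littermates, and the knockout is present in every tissue of the animal, skeletal muscle included. All 10 mice received a high-fat diet (HFD) for 24 weeks from an age of 6 to 8 weeks, per the sample records, at standard room temperature. The paper states a slightly different duration and age. The data concern the RNA of a dissected piece of fat, and no muscle was sequenced on its own.

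Skeletal muscle contracts when myosin of the thick filament pulls on actin of the thin filament, and calcium released from the sarcoplasmic reticulum switches the thin filament on through troponin. Fast and slow fibres use different genes for the same position in this machine, so that Tnnt3 and Tnnt1, or Myh4 and Myh7, are read as the fast and the slow isoform of a protein. Interscapular brown fat lies on the muscles of the upper back, and brown adipocytes share a developmental lineage with skeletal muscle.

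The total count per library lay between 5431014 in Axl KO replicate 5 and 9580215 in WT replicate 2. Axl, the targeted gene, had 3 to 15 counts in the Axl KO libraries and 224 to 383 in the WT libraries. Ucp1, the uncoupling protein that defines brown fat, had 2990 to 7630 CPM (counts scaled to a common library size) in the 10 depots, with the highest value in Axl KO replicate 5. Levels below are CPM after TMM scaling of the library totals, unless reads are named.

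Promoter windows of 6 members are shown first, because 5 of them had levels under 10 CPM in Axl KO replicates 1 and 2 and the last, Myl1, did not. Each window runs from 250 bases before to 50 bases after a RefSeq start site on GRCm38.p6, written 5′ to 3′ on the gene's strand. Capitals mark CAGCTG, a form of the E-box bound by MyoD and its relatives, the MEF2 box, the CArG box of serum response factor, CATTCC (the MCAT element) on either strand, and TATAAA on the gene's own strand.
Acta1 (chr8:123894726-123895025, strand minus): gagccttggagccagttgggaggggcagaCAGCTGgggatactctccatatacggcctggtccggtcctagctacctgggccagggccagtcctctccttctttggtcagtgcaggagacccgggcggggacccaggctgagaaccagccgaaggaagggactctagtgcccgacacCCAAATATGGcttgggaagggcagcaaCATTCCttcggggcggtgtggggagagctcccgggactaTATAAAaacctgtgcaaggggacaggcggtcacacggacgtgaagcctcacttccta
Ckm (chr7:19410844-19411143, strand plus): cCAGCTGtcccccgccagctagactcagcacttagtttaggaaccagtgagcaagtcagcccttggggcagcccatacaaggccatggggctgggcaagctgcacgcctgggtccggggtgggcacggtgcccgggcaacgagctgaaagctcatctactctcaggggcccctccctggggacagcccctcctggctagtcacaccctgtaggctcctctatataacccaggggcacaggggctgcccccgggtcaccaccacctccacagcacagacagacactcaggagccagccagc
Myh4 (chr11:67237562-67237861, strand plus): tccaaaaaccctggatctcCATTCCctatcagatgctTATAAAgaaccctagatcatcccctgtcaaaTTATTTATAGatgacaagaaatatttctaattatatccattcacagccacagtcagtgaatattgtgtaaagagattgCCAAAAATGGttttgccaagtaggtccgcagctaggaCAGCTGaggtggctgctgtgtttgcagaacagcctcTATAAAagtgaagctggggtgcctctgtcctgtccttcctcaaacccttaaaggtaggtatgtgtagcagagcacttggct
Tnnt1 (chr7:4515926-4516225, strand minus): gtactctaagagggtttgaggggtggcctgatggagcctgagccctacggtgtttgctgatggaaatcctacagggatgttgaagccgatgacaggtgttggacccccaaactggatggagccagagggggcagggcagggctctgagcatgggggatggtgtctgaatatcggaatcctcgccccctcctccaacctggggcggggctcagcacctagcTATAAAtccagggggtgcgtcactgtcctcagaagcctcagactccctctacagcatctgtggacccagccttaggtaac
Myoz2 (chr3:123034938-123035237, strand minus): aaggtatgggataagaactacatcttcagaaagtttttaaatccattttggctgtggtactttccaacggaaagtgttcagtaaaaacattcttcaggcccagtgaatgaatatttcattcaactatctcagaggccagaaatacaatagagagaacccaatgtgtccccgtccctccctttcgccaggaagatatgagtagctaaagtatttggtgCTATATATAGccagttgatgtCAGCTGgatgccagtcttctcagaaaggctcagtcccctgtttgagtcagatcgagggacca
Myl1 (chr1:66945007-66945306, strand minus): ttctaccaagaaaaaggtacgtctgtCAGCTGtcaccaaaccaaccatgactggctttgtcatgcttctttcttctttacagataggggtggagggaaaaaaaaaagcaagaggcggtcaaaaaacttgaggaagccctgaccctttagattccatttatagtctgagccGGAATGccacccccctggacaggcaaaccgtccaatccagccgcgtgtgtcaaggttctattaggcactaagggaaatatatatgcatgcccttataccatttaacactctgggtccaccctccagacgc
Of the 39 members, 31 had such a window, and 38 windows of 300 bases were read because some genes have several start sites. CAGCTG was present in 17 of the 31 genes and in 52.6% of their 38 windows, against 16.3% of all 32851 windows of the same length. The MEF2 box was present in 7 of the 31 genes (18.4% of their windows, 3.19% of all windows). CATTCC was present in 12 (31.6 and 14.7%), the CArG box in 4 (13.2 and 1.63%) and TATAAA in 5 (13.2 and 8.32%). The wider E-box CANNTG, which includes CAGCTG, was present in 27 genes, in 84.2% of their windows and in 72.3% of all windows. A match to these letters is a description of the window and no measure of binding.

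RNA of at least some of the 39 genes was measured in every depot, at very different levels. Their summed level was 238 CPM in Axl KO replicate 1, 187 in replicate 2, 5273 in replicate 3, 2023 in replicate 4 and 11775 in replicate 5. In the WT depots it was 10189, 2717, 12252, 10366 and 2469 CPM for replicates 1 to 5. The highest depot, WT replicate 3, thus lay 65.6-fold above the lowest, Axl KO replicate 2, and the 39 genes took between 0.0187 and 1.27% of the counts of a library. Of the 187 CPM in Axl KO replicate 2, Myl1 held 84.3 and Des 54.4. For the sum of Acta1, Ckm, Myh4, Tnnt3 and Atp2a1 alone the span was 758-fold, with 27 reads in Axl KO replicate 2. The depots fell into a group of 2 with almost no muscle RNA (Axl KO replicates 1 and 2), a group of 4 in between, and a group of 4 near the top that held 1 Axl KO and 3 WT depots. In a bulk sample, fewer muscle fibres and less RNA per fibre cannot be told apart.

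**Figure D1:**
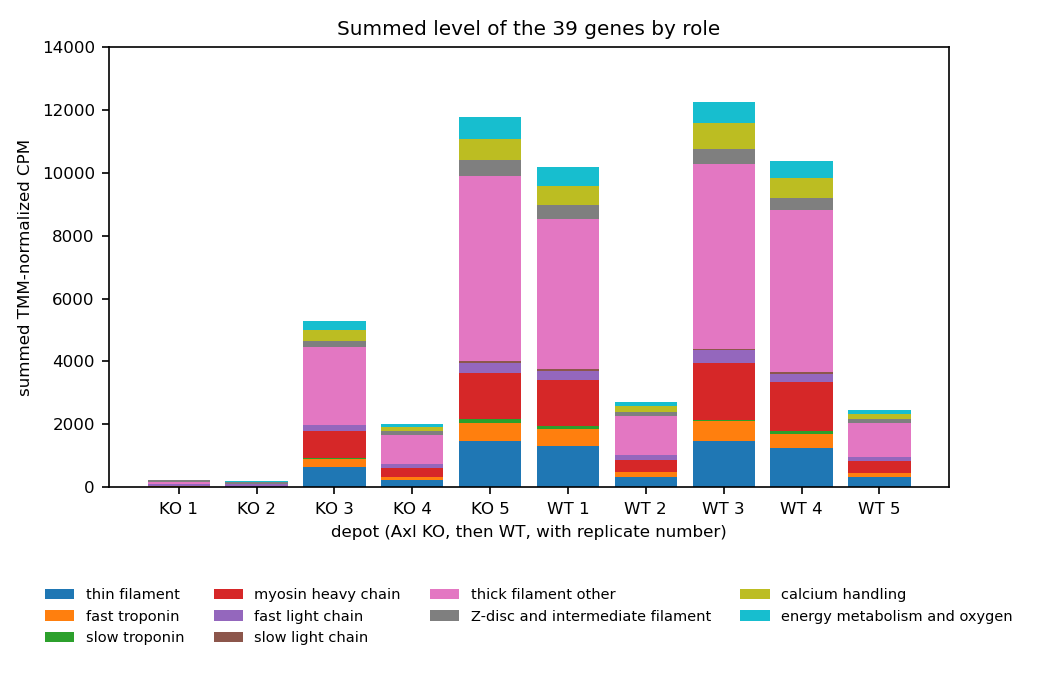
Summed TMM-normalized CPM of the 39 genes in each of the 10 depots (linear axis), stacked by the role of the genes. The highest depot reached 12252 CPM and the lowest 187, and Axl KO replicate 5 reached 11775.

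For 8 of the 10 roles the highest depot lay between 76.5-fold (energy and oxygen) and 1350-fold (myosin heavy chains) above the lowest, and the exceptions were the fast light chains (5.56-fold) and the Z-disc and intermediate filament genes (8.48-fold). The thin filament genes (Acta1, the skeletal actin, Neb, its molecular ruler, and Tpm2, a tropomyosin) summed to 13.4 CPM in the lowest depot and 1470 in the highest. Calcium handling genes, which include Atp2a1 (the fast calcium pump), Ryr1 (the release channel) and Casq1 (the calcium store protein of fast fibres), ranged from 4.06 to 809 CPM. The myosin heavy chains ranged from 1.35 to 1830 CPM. Energy and oxygen genes, which include Ckm (muscle creatine kinase) and Mb (myoglobin), ranged from 9.32 to 713 CPM.

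Acta1 (ENSMUSG00000031972, chr8:123891769-123894751, minus strand, GRCm38) shows the order of the depots. Its level was 3.70, 1.20, 274, 93.7 and 655 CPM in Axl KO replicates 1 to 5 and 583, 140, 658, 545 and 139 CPM in WT replicates 1 to 5. The 2 lowest values were Axl KO, the highest Axl KO depot lay beside the 3 highest WT depots, and the ranges of the groups overlapped. The other 38 members were ordered over the 10 depots much as Acta1 was, since 36 of them had a Spearman's rho of at least 0.90 with Acta1 (descriptive, all within the same 10 libraries), and the lowest value was 0.842.

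Slow-fibre genes followed the same broad order at lower levels. Tnnt1 had 0, 0, 8.51, 2.47 and 33.3 CPM in Axl KO replicates 1 to 5 and 30.0, 5.61, 16.0, 25.3 and 3.40 CPM in WT replicates 1 to 5. Myh7 had 0, 0, 49.1, 8.59 and 175 CPM in the Axl KO depots and 133, 25.0, 85.8, 139 and 16.0 CPM in the WT depots. Both were at 0 reads in Axl KO replicates 1 and 2, both were highest in Axl KO replicate 5, and WT replicate 3, the first depot by Acta1, lay below 3 other depots by each. The slow regulatory light chain Myl2 reached 59.1 CPM, the slow essential light chain Myl3 18.6 and the slow myozenin Myoz2, an anchor of calcineurin at the Z-disc, 12.4, with lowest values of 0, 0.451 and 0 CPM.

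Other members are given by their range over the 10 depots. Neb ranged from 5.11 to 604 CPM and Tpm2 from 7.06 to 213. The fast troponins Tnnt3, Tnni2 and Tnnc2 had lowest values of 0.301, 0.451 and 0.451 CPM and reached 299, 179 and 154, whereas the slow Tnni1 ranged from 0 to 35.4 and Tnnc1 from 0.301 to 33.5. Of the fast heavy chains, Myh4 ranged from 0.902 to 1260 CPM, Myh1 from 0.15 to 330 and Myh2 from 0.301 to 186. Mybpc1 ranged from 0.301 to 151 CPM, Atp2a1 from 1.35 to 431, Ckm from 0.301 to 428, Casq1 from 0 to 60.1 and Casq2 from 0.617 to 5.46. Among the fast genes, Mylpf, the regulatory light chain, ranged from 0.902 to 175 CPM, the heavy chain partner Mybpc2 from 0.15 to 87.6, the Z-disc actinin Actn3 from 0.451 to 92.5, Myoz1 from 0.15 to 43.1 and Pvalb from 0.301 to 147. At the Z-disc, Tcap (telethonin, which caps titin) ranged from 0.15 to 86.3 CPM, Ldb3 from 0.451 to 48.0, Myot (myotilin) from 0 to 54.6 and Actn2 from 2.16 to 59.7. At the triad, where excitation meets calcium release, Ryr1 ranged from 0.451 to 120 CPM and its voltage sensor Cacna1s from 0 to 46.1. Of the glycolytic enzymes, Pgam2 ranged from 0.15 to 38.4 CPM, while Eno3, the muscle enolase, ranged from 6.33 to 119. Mb, which binds oxygen, ranged from 1.95 to 172 CPM. The lowest value of 35 of the 39 genes was that of Axl KO replicate 2, ties at 0 included, and that of the other 4 (Myl1, Actn2, Casq2 and Eno3) was Axl KO replicate 1.

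Titin, the spring that spans the sarcomere, took the largest share of the members' reads in 8 depots. Ttn had 5670 CPM in WT replicate 3 and 10.5 CPM in Axl KO replicate 2. Its very long transcript yields many reads, so this share is a share of reads and not of molecules. It held 42.1 to 48.0% of the reads on the 39 genes in these depots, and 18.3 and 5.64% in Axl KO replicates 1 and 2.

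**Figure D2:**
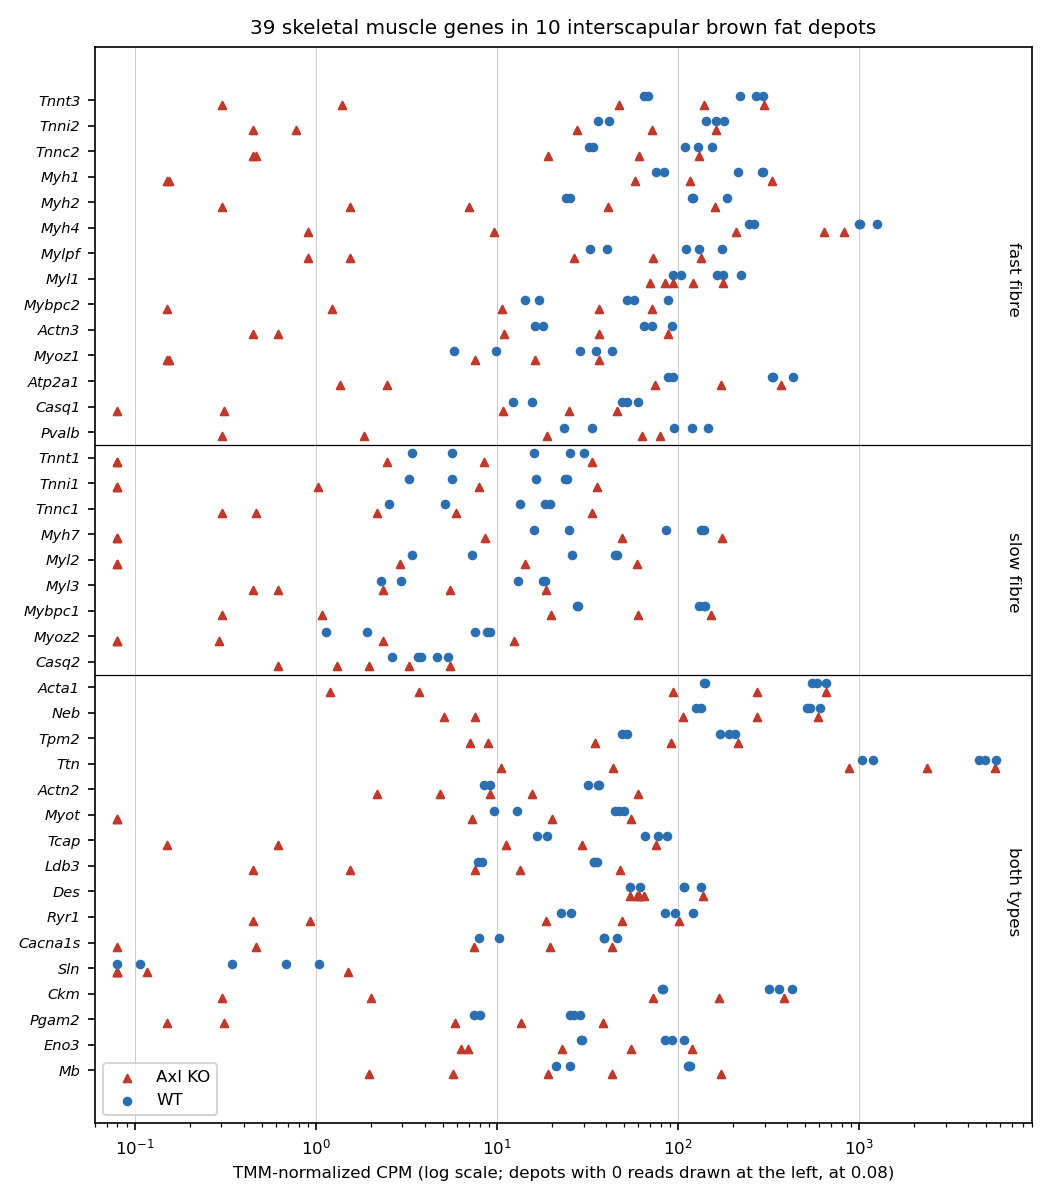
TMM-normalized CPM of each of the 39 genes in 5 Axl KO (triangles) and 5 WT depots (circles), on a log axis, with depots at 0 reads drawn at 0.08. For Acta1 the values run from 1.20 to 658 CPM, while Des runs only from 54.4 to 138.

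Axl KO and WT depots were then compared gene by gene. With 5 mice per group the mean level of Acta1 was 206 ± 275 CPM (SD) in Axl KO and 413 ± 253 in WT, Myh4 had 335 ± 374 and 755 ± 470, and Tnnt1 had 8.86 ± 14.1 and 16.1 ± 11.7. In edgeR's quasi-likelihood test across 13739 genes with a mean above 1 CPM, 38 of the 39 members were tested. None of the 38 passed an adjusted p of 0.05, and the adjusted p lay between 0.641 (Myl1) and 0.881 (Tnnc1). Over all tested genes 1 gene (0.00728%) passed, which was Axl. DESeq2 called 9 genes (0.0655%), of which 0 were members. At an unadjusted p under 0.05, edgeR marked 0 of the 38 members and 8.4% of all tested genes. The fold changes were all below 0 on the log2 scale, from -1.36 for Pvalb, the calcium buffer of fast fibres, to -0.31 for Des, with a median of -0.96. The median over all tested genes was near 0, and 50.2% of them were lower in Axl KO. The 38 directions are not independent, because the genes were read from the same 10 libraries and varied together in them. The CPM ranges of the groups overlapped for all 39 members, against 1.35% of the tested genes that did not overlap. Exact permutation tests of single genes gave p = 0.151 for Acta1, 0.135 for Myh4, 0.198 for Tnnt1 and 0.198 for Myl1 (two-sided, n = 5 and 5, smallest possible p 0.00794). Sln, sarcolipin, had at most 9 reads in any depot and was too low to test.

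The comparison depended on Axl KO replicate 5 more than on any other single depot. Leaving out any other single depot left 0 members with an unadjusted p under 0.05, except 1 member without WT replicate 5. Without Axl KO replicate 5, the depot with the highest level among the knockouts, 31 of the 38 members had an unadjusted p under 0.05 (7.07% of all tested genes), with a median log2 fold change of -2.01, although 0 passed the adjusted threshold (adjusted p 0.646 to 0.781). With Axl KO replicates 1 and 2 left out together, the median was -0.25 and 36 of 38 members were below 0. In that fit 0 members had an unadjusted p under 0.05 (5.9% of all tested genes). The difference in summed CPM between Axl KO and WT was then -1240, against -3700 with all 10 depots. Actn2, the Z-disc actinin of slow and fast fibres, and Tnnc1, the slow troponin C, were then at 0.18 each on the log2 scale.

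For 3 members, Myl1, Des and Casq2, a fitted level remained where the muscle markers were at 0. The CPM of each gene was fitted as a line on the summed CPM of 5 muscle markers (Acta1, Ckm, Myh4, Tnnt3 and Atp2a1, leaving the gene itself out) over the 10 depots, and the intercept gives the level expected with no marker RNA. Myl1 (ENSMUSG00000061816, chr1:66924295-66945404, minus strand), an essential light chain of fast muscle, had 69.7, 84.3, 120, 94.0 and 177 CPM in Axl KO replicates 1 to 5 and 176, 104, 221, 164 and 94.0 CPM in WT replicates 1 to 5. Its values spanned 3.17-fold, and the groups overlapped. It had an intercept of 72.1 CPM (SE 5.11), 47.5% of its WT mean. In Axl KO replicates 1 and 2 the 5 markers summed to 19.1 and 4.06 CPM. Des, the intermediate filament protein desmin, had an intercept of 47.0 CPM (SE 6.32), 50.7% of its WT mean, and levels of 59.3 and 54.4 CPM in these 2 depots. Casq2, the calsequestrin of slow and cardiac muscle, had an intercept of 1.64 CPM (SE 0.478) at 4 and 13 reads in these depots. The other 36 intercepts did not lie above 0 by more than 2 SE, which does not show that these genes fall to 0. Actn2 had an intercept of 1.97 CPM (SE 4.78), and in Axl KO replicate 2 it was at 4.81 CPM, Eno3 at 6.91 and Tpm2 at 7.06. Leaving out each depot in turn moved the Myl1 intercept only between 68.0 and 74.7 CPM and that of Des between 43.1 and 49.2. Desmin is also a protein of smooth muscle, and its use in other cells of the depot was not tested.

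**Figure D3:**
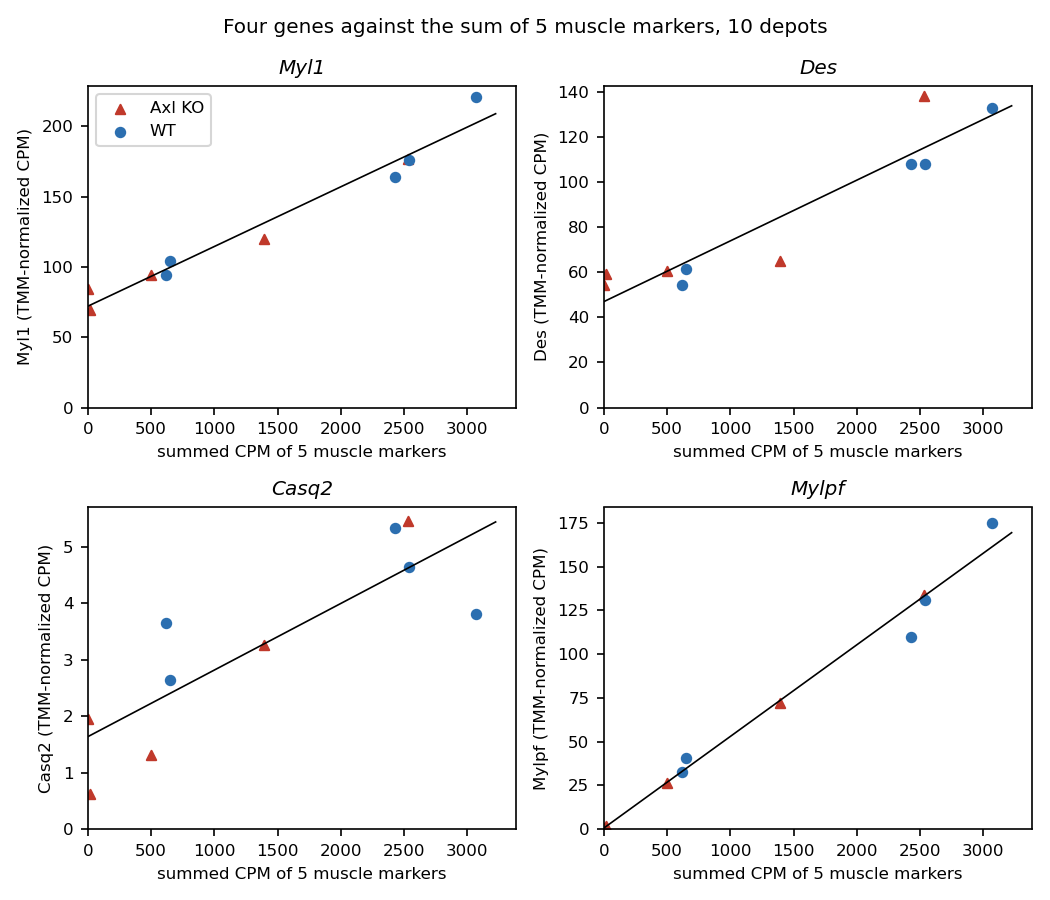
Myl1, Des, Casq2 and, for comparison, Mylpf (TMM-normalized CPM) against the summed CPM of 5 muscle markers in 10 depots, with the fitted line. The line meets the axis at 72.1 CPM for Myl1 and 47.0 for Des, and at 0.637 CPM for Mylpf.

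Fibre type was read from the share of the slow isoform among the reads of 9 isoform pairs. Only the 8 depots with at least 1000 reads on the 5 markers were ranked, since the remaining 2 had too few reads, and this limit was chosen after the levels were seen. The fast isoform predominated in these reads for 8 of the 9 pairs in all 8 depots. The slow share was 4.96 to 10.3% for troponin T (Tnnt1 against Tnnt3), 3.55 to 18.0% for troponin I (Tnni1 against Tnni2), 7.30 to 20.4% for troponin C (Tnnc1 against Tnnc2) and 9.47 to 30.5% for the regulatory light chain (Myl2 against Mylpf). The essential light chain (Myl3 against Myl1) gave 2.35 to 10.1% in these depots, myozenin (Myoz2 against Myoz1) 3.70 to 25.4% and calsequestrin (Casq2 against Casq1) 5.97 to 19.0%. The exception was myosin-binding protein C, where Mybpc1, named for slow fibres, held 61.3 to 71.7% of the reads shared with Mybpc2. Isoforms can differ in length, so these are shares of reads. A second set of shares divided the reads by all annotated exon bases of a gene, which can exceed those of a single transcript. Tnnt1 has 2204 such bases and Tnnt3 1583, but their longest transcripts have 1059 and 1079 bases. These values are therefore no correction for transcript length. Per kilobase of exon the median slow share was 4.90% for troponin T, against 6.69% by reads, and 4.85% for troponin I, against 10.9%. For troponin C it was 8.97% against 11.4%, for the regulatory light chain 9.31% against 15.9%, for myozenin 9.71% against 16.3%, and for Myh7 among the heavy chains 4.46% against 6.15%. The essential light chain gave 5.04% per kilobase against 4.97%, calsequestrin 7.91% against 10.8% and myosin-binding protein C 60.4% against 65.7%. Myl1 and Casq2 rose with the markers but also carry a fitted level that remained without marker RNA, as described above. The shares of these 2 pairs include that level.

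The depots did not share a single fibre mixture. Axl KO replicate 5 ranked among the top 3 slow shares in 8 of 9 pairs, WT replicate 4 in 8 and WT replicate 1 in 7, whereas Axl KO replicate 4 and WT replicate 3 were among the lowest 4 in 8 pairs each. Over the 7 pairs without the essential light chain and calsequestrin, these counts were 7, 7 and 6 for the top 3 and 7 each for the lowest 4. Of the 9 pairs, Axl KO replicate 3 was among the lowest 4 in 7 and WT replicate 5 in 6. WT replicate 5 was the lowest depot in 4 pairs (troponin T, troponin C and both light chains) and the highest for calsequestrin. Axl KO replicate 4 was the lowest in 3 (troponin I, myozenin and the heavy chains). Low shares of Axl KO replicate 4 rest on few reads, such as 7 of Tnni1 and 2 of Myoz2. Myh7, the slow heavy chain, took 11.8% of the reads on the 4 adult heavy chains in Axl KO replicate 5 (95% exact interval 11.1 to 12.5, 7891 reads) and 4.70% in WT replicate 3 (4.38 to 5.04, 15785 reads), although the summed levels of the 39 genes in these 2 depots were 11775 and 12252 CPM. The regulatory light chain gave 30.5% (27.7 to 33.5) and 12.8% (11.3 to 14.5) in the same depots. These intervals cover counting error only, and each depot is a single mouse. The share of Myh7 was 6.88 ± 4.46% (SD, n = 3) in Axl KO and 6.70 ± 2.26% (n = 5) in WT, a difference far smaller than the spread between mice.

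**Figure D4:**
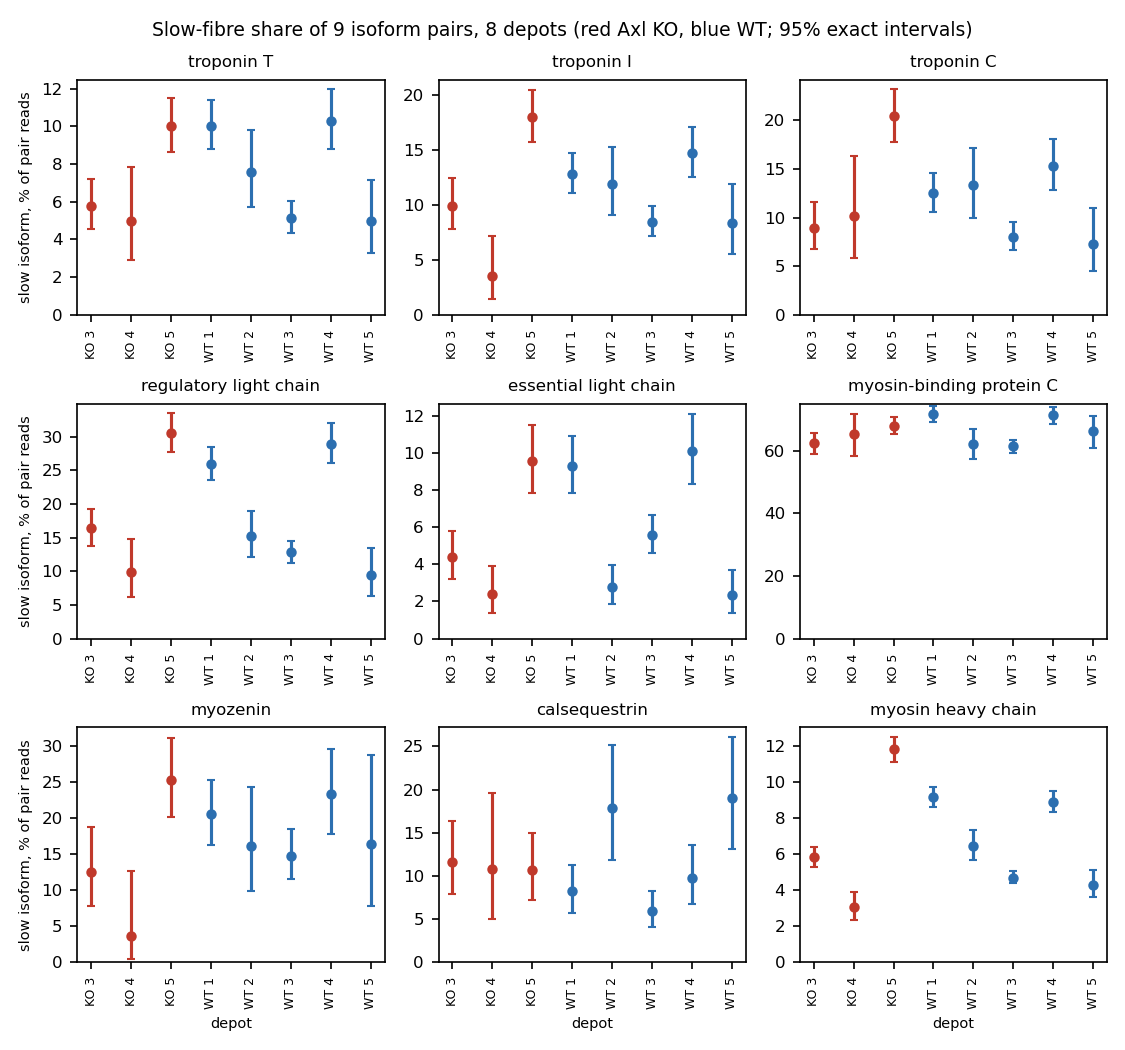
Slow isoform as a percent of the reads of each of 9 pairs in 8 depots, with 95% exact binomial intervals that cover counting error. In 8 panels Axl KO replicate 5 is among the 3 highest points, and the calsequestrin panel is the exception. That panel and the essential light chain panel each hold a gene (Casq2 and Myl1) with a fitted level that remained without marker RNA.

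The fast heavy chain genes lie side by side on chromosome 11 (Myh2 at chr11:67171027-67197517, Myh1 at chr11:67200052-67224575 and Myh4 at chr11:67238029-67260446, all on the plus strand of GRCm38), and Myh7 lies on chromosome 14 (chr14:54970684-54994626, minus strand). Among the reads on these 4 genes in the 8 depots, Myh4, the type IIB chain, held 55.3 to 75.5%, Myh1, the type IIX chain, 13.8 to 22.6%, Myh2, the type IIA chain, 2.47 to 10.7% and Myh7 3.04 to 11.8%. Axl KO replicate 5 had the lowest Myh4 share (55.3%) with the highest Myh2 and Myh7 shares, and Axl KO replicate 4 the lowest Myh2 and Myh7 shares. Axl KO replicate 1 had 73 reads on the 4 genes, of which 0 were Myh7 (95% exact interval up to 4.93%), and Axl KO replicate 2 had 9 reads. By annotated exon bases the 4 genes run from 6016 (Myh4) to 8616 (Myh7). Their longest transcripts differ little in length, at 6016 to 6230 bases. They also share sequence: 26.7% of the 50-base words of Myh1, 26.9% of those of Myh2, 18.9% of those of Myh4 and 22.2% of those of Myh7 occur in another compared gene, and how reads matching several genes were counted is not given, so small shares of Myh1 and Myh2 are uncertain.

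**Figure D5:**
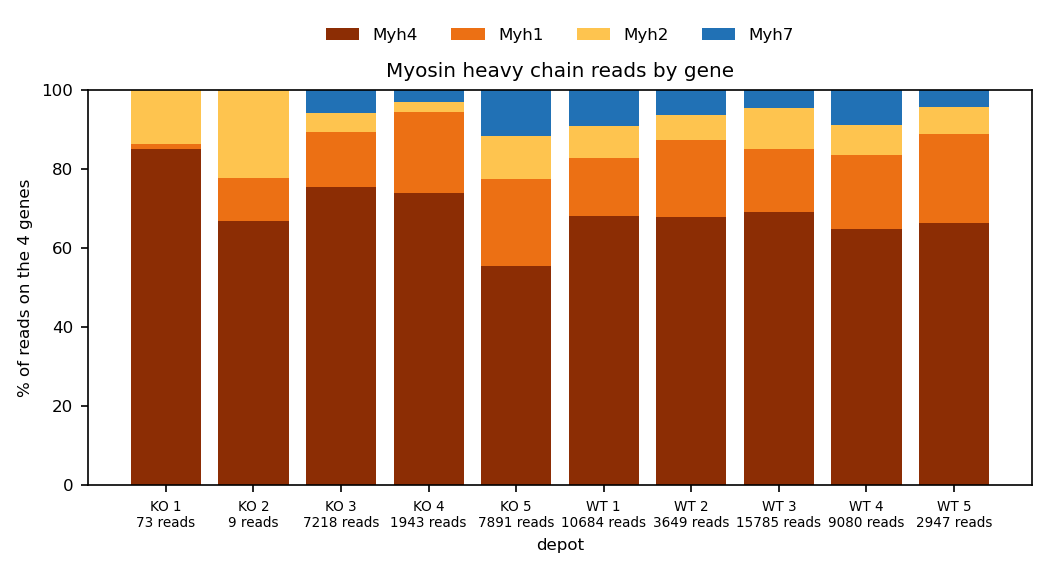
Share of Myh4, Myh1, Myh2 and Myh7 among the reads on the 4 adult heavy chain genes in each depot, with the number of reads under each bar. Myh4 is the largest part in all 10 depots, and the slow chain Myh7 reaches 11.8% in Axl KO replicate 5.

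The slow genes varied more than the fast genes once the amount of muscle RNA was taken out. Each member was divided by the summed CPM of the 5 markers in the 8 depots, and the coefficient of variation over depots had a median of 47.2% for the 9 slow genes, 13.1% for the 14 fast genes and 14.2% for the 16 genes of both types. In Axl KO replicate 5, 7 of the 9 slow genes had their highest value relative to the markers, as did 12 of the 16 genes of both types and 3 of the 14 fast genes. In the same depot Myh4, which makes up much of the marker sum, was at its lowest relative to the other 4 markers (48.1%, against a median of 69.0% over the 8 depots). Tnni1, the slow troponin I, ranged 6.83-fold from 0.205% of the marker sum in Axl KO replicate 4 to 1.40% in Axl KO replicate 5, but the low end rests on 7 reads, and without Axl KO replicate 4 the range was 2.65-fold from 0.527%. Without that depot the median coefficient of variation was 38.0% for the slow genes and 12.1% for the fast genes. Ttn ranged 1.33-fold and Neb 1.20-fold over the same depots. Myl1, Des and the slow gene Casq2 varied by 46.3, 45.3 and 53.3%, and all 3 carry the level described above. Casq2 is part of the slow median. Of the fast genes Myh2 varied most after Myl1 (37.8%). The markers are themselves fast or shared genes, so this measure sets the slow genes against a fast reference.

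Fast and slow genes nevertheless varied together over the 8 depots. Axl KO replicates 1 and 2, with 124 and 27 reads on the 5 markers, form a cluster of their own and were left out. Tnnt3 and Tnnt1 had a Pearson's r of 0.953 on the log2(CPM + 1) scale (exact permutation p = 0.000992, adjusted over 5 relations 0.00248) and a Spearman's rho of 0.929 (p = 0.00223, adjusted 0.0112), and r was 0.889 without the 2 depots farthest from the median of Tnnt3. Acta1 and Mb had r = 0.983 (exact p = 0.000422, adjusted 0.00211) and rho = 0.857 (p = 0.0107, adjusted 0.0268), and r = 0.977 without 2 depots. Acta1 did not follow Ucp1 detectably (r = -0.18, exact permutation p = 0.679, adjusted 0.849, rho = -0.26), Myh11 of smooth muscle (r = -0.01, p = 0.981, adjusted 0.981, rho = -0.12) or the library total (r = -0.43, p = 0.288, adjusted 0.48, rho = -0.10), with n = 8 in each.

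Other muscle genes, from lists chosen with earlier results of these data known, were lower on average in Axl KO as the members were, and none passed the adjusted p of 0.05. All 29 tested genes of the remaining sarcomere and cytoskeleton had a negative fold change, as did 14 of 15 triad and excitation genes, 15 of 15 metabolism genes and 6 of 6 of protein turnover, with list medians of -0.88, -0.77, -0.91 and -0.86. Of all tested genes, 50.2% were lower in Axl KO. These directions are not independent, because the genes were read from the same 10 libraries. The list medians of Pearson's r with the 5-marker sum lay between 0.934 and 0.972. At an unadjusted p under 0.05 these lists held 2 of 29, 0 of 15, 0 of 15 and 1 of 6 genes, against 8.4% of all tested genes. The 10 other muscle genes with the highest mean level included Atp2a2, the calcium pump of slow and cardiac muscle and of other cells, at 432 to 533 CPM in every depot, and Mef2d, a transcription factor, at 46.3 to 62.3 CPM. Xirp2, an actin-binding protein of striated muscle, ranged from 0.301 to 196 CPM and Pygm, muscle glycogen phosphorylase, from 1.95 to 116 CPM. Fhl1 (109 to 247), Tpm1 (55.2 to 241), Pfkm (87.2 to 181), Srl (30.8 to 111) and Tpm3 (38.6 to 76.6) were measured in every depot at levels far above 0.

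Heart genes were almost absent. Myh6 had 7 reads over the 10 libraries, Tnni3 8 and Mybpc3 1, while Nppa, Nppb and Myl7 had 0. Ryr2, the release channel of heart, was the exception at 58.6 to 98.0 CPM, lowest in WT replicate 3 and highest in Axl KO replicate 5 (log2 fold change 0.25, unadjusted p = 0.0495, adjusted p = 0.594 in edgeR). Genes of developing or regenerating muscle were also low: Myh3, the embryonic heavy chain, had 30 reads in all, 18 of them in Axl KO replicate 5, Myh8 had 7, Actc1 12, Tnnt2 4 and Chrng 0, and Myl4 lay between 3.01 and 5.73 CPM. Satellite cell and myogenic factors were near 0, with 1 read of Pax7, 4 of Myf5, 13 of Myod1 and 10 of Myog, while Myf6, the factor of mature fibres, reached 4.89 CPM in Axl KO replicate 5. Smooth muscle markers summed to 105 to 149 CPM in Axl KO and 129 to 153 CPM in WT, and none of the 8 tested was called.

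Some members overlap other genes on the opposite strand, and the strand setting of the counting is not given. Tnnc2 shares 74.0% of its exon bases with Ube2c, which had 0 to 7 reads in a depot, and Atp2a1 shares 21.9% with Rabep2, which had 37 to 94. Mb shares 4.29% with Apol6, which had 580 to 1442 reads.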

How the data were processed

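Libraries of whole iBAT depots from 5 Axl KO and 5 WT mice were prepared with a TruSeq kit, 1 per mouse. The authors deposited raw read counts per Ensembl gene for each mouse, not normalized and not pooled. The study's methods name Trim Galore and hisat2 with GRCm38, whereas the submitters' processing notes name bcl2fastq, Trimmomatic 0.36, STAR 2.6.1c, DESeq2 and GRCm38.p5. The methods describe rRNA-depleted RNA and the sample records polyA RNA. The counting tool, its strand setting and its treatment of reads on several genes are not given in the sources used here. Replicates are separate mice.

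From the counts, edgeR 4.0.16 (R 4.3.3) gave TMM factors (0.977 to 1.044) and a quasi-likelihood test of Axl KO against WT over every gene whose mean exceeded 1 CPM, with Benjamini-Hochberg adjustment over all of them and no covariate. Symbols came from GENCODE M21. Single genes were compared by two-sided exact permutation of mean log2(CPM + 1). Correlations used all 40320 orders of 8 depots, fewer than the 10 planned, since 2 depots form a separate cluster. Shares have 95% Clopper-Pearson intervals that cover counting error only. The depth was 5431014 to 9580215 counts. The edgeR test was checked on simulated counts with the same dispersion for every gene. The members varied far more between depots, so this check does not cover them. All 39 members were named, with Axl, the cardiac and developmental genes, Ucp1, Myh11 and the 10 highest other muscle genes (1 of which is not reported here), and further genes were chosen after their values were seen. The members and lists were chosen with earlier results of these data known. Alternatives were DESeq2 1.42.0, other scalings and filters, the replicate block, each mouse left out and reads per kilobase of all annotated exon bases. RefSeq promoter windows were searched for motifs, and no protein sequence or genome was used here.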

Additional observations from a re-analysis of the deposited data

Results flagged for a closer look

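In the Axl KO group of 5, a single depot stood apart for 13 of the 39 members, and in each case it was Axl KO replicate 5 at the top. Its levels were 33.3 CPM for Tnnt1 against 8.51 for the next depot, 35.4 against 7.93 for Tnni1, 33.5 against 5.95 for Tnnc1, 175 against 49.1 for Myh7, 59.1 against 14.2 for Myl2, 18.6 against 5.48 for Myl3 and 12.4 against 2.33 for Myoz2, which are 7 of the 9 slow genes. Myh2, the type IIA heavy chain, was at 159 against 40.9 CPM, Mb at 172 against 43.0, Actn2 at 59.7 against 15.6, Ldb3 at 48.0 against 13.3, Des at 138 against 64.9 and Sln at 1.51 against 0.117. The Sln values rest on 8 reads and 1 read. The highest WT levels of the 7 slow genes, in the order above, were 30.0, 24.4, 19.6, 139, 45.7, 18.4 and 9.15 CPM. For Myh2, Mb, Actn2, Ldb3, Des and Sln they were 186, 116, 36.4, 35.4, 133 and 1.04 CPM. No WT depot and no other Axl KO depot stood apart in this way, among 80 groups examined. The gap to the nearest depot divided by the group's range, in CPM without logs, was compared with Dixon's critical value. Normally distributed values exceed it in about 1 of 20 groups. The Axl KO levels are strongly skewed, from 0 to 33.3 CPM for Tnnt1, so this rate does not apply to them. The share of all genes flagged in this way was not computed. The 39 genes share their libraries, so the 13 flags are not independent. Axl KO replicate 5 also had the lowest total count, 5431014, and the highest Ucp1 level, 7630 CPM, and the part of either in these values was not tested.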

How the results depend on the processing

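The number of members called stayed at 0 in every fit, and 682 of 684 member fold changes over 18 alternative settings were below 0, with a lowest adjusted p of 0.394. The 2 above 0, without Axl KO replicates 1 and 2, were Tnnc1 (0.179) and Actn2 (0.176). The number of genes called was 1 in every edgeR fit, each mouse left out included, and 9 with DESeq2. The difference in summed CPM between Axl KO and WT was -3700 and lay between -5670 and -2540 with single mice left out. The replicate block changed no call (1 gene called, and 1 member with an unadjusted p under 0.05) but moved 31 of the 38 fold changes by over 1.5 times, to a median of -1.75, with Acta1 at -2.71 against -1.01, Ttn at -3.00 against -0.96 and Myl1 at -0.49 against -0.48 (adjusted p 0.65 to 0.782). Same-numbered mice share only a number: the correlations of their deviations from the group means ran from -0.355 to 0.369. Per kilobase of annotated exon, which is not transcript length, the median slow share moved to 4.85% for troponin I and 60.4% for myosin-binding protein C.

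The correlation of Acta1 with Ucp1 lay between -0.675 and 0.097, and that with Myh11 between -0.377 and 0.218, with single depots left out, and with plain CPM the latter was 0.004. With single mice left out, the log2 difference lay between -3.87 and -1.82 for Acta1, -3.91 and -1.72 for Myh4, and -2.46 and -1.19 for Tnnt1. Without Axl KO replicate 5 the exact p was 0.0397 for Acta1, 0.0397 for Myh4 and 0.0476 for Tnnt1, and without Axl KO replicate 3 it was 0.0397 for Myh4. These single-gene alternatives, and the fit without 2 depots, were chosen after seeing the data. The depth limits the slow genes most: Myoz2 had 2 reads in Axl KO replicate 4.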

Other observations

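Some genes outside every list also ranged widely over the depots. Klhl31, a kelch-family gene of striated muscle, ranged from 0.15 to 26.2 CPM over the 10 depots, Cmya5, a muscle costamere gene, from 20.2 to 192 CPM, Flnc, the muscle filamin, from 5.86 to 66.5 CPM, and Synm, an intermediate filament gene, from 17.4 to 52.3 CPM. The imprinted long noncoding RNA H19 ranged from 0.15 to 23.7 CPM. These genes were chosen after their values were seen.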
